A study of Mus musculus with 2 samples.

Results

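The genes that build the protein import machinery of mitochondria were examined in long-read RNA sequencing of the gastrocnemius, a calf muscle, of B6CASTF1/J males at 2 months of age. This mouse is the first-generation cross of a C57BL/6J and a CAST/EiJ parent. The labels give biological replicate 2 and biological replicate 1, made from 2 µg of RNA each, and name no treatment. The males carry different numbers but share a donor identifier, so whether they are separate animals is not settled. What separates the libraries may thus be biological or technical, and with 1 group of 2 there was nothing to test.

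Members were the genes named in both libraries as translocases of the outer membrane (Tomm genes) or the inner membrane (Timm genes), together with Samm50, Pam16, Dnajc19, the Grpel genes, Hspa9, Hspd1, Hspe1, Chchd4, Pmpca and Pmpcb, leaving out names marked as pseudogenes. They were chosen by name and not by level. The rule found 35 genes among 14675 annotated genes with a read in either library. All 35 had reads in both libraries and none was found in 1 library alone. The annotated genes Timm8a2, Tomm20l and Tomm6os also have matching names but had 0 reads in both libraries, which allows levels of up to 2.14 CPM in replicate 2 and 2.71 CPM in replicate 1.

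Nearly all mitochondrial proteins are encoded in the nucleus, made in the cytosol and carried into the organelle. The TOM complex is the common gate of the outer membrane. From there the SAM complex inserts barrel proteins, an oxidative relay folds proteins of the intermembrane space, TIM22 inserts carriers, and TIM23 passes proteins with a presequence inward, where an HSP70 motor pulls them, a peptidase removes the presequence and the HSP60 chaperonin folds the product. Muscle fibres are rich in mitochondria, slow and oxidative fibres more so than fast glycolytic ones.

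Replicate 2 held 1402875 reads of annotated genes and replicate 1 held 1107128. Levels are given as CPM, reads of a gene per 1000000 of these reads. A long read is counted once whatever its length, so CPM was not divided by transcript length. Levels of different genes are set side by side on this scale, on which amplified copies and fragments also count as reads. Intervals cover counting error only, at the 95% level. The tissue label fits its markers: 12 of 12 fast fibre marker genes summed to 229119 CPM in replicate 2 and 256782 CPM in replicate 1, and 12 of 12 slow fibre markers to 13095 and 4914 CPM. Slow fibre markers were thus 2.66-fold higher in replicate 2, with 12 of 12 higher there, while 11 of 12 fast markers were higher in replicate 1. The exception was the fast myosin gene Myh4, 1.24-fold higher in replicate 2 (18498 and 14898 CPM). Atp2a1, which gave 144902 and 147454 CPM of the fast sums, was nearly equal, with a ratio of 0.983. Summed markers of fibroblasts had 696 and 618 CPM, of endothelium 91.95 and 69.5, of erythroid cells 109.8 and 170.7, of macrophages 30.7 and 36.1, and of adipocytes 2.85 and 12.6, with the adipocyte genes Adipoq, Lep and Plin1 and the macrophage gene Cd68 at 0 in both. In a bulk sample, fewer cells of a type and less RNA per cell cannot be told apart.

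The 35 import genes together formed a small part of the transcriptome. They held 5113 reads in replicate 2, or 0.364% of reads of annotated genes (Wilson interval 0.355 to 0.375), and 3634 reads in replicate 1, or 0.328% (0.318 to 0.339). The summed level was 3645 CPM in replicate 2 and 3282 CPM in replicate 1, a mean of 3464 ± 256 CPM (SD, n = 2). Single members covered a wide range: the median member had 77.7 CPM in replicate 2 and 59.6 CPM in replicate 1, against 8.55 and 8.13 CPM for the median of all annotated genes with a read. The highest member mean was 393 CPM and the lowest 7.63 CPM. The 3 leading members, Hspa9, Timm23 and Hspd1, took 31.3% of the members' reads in replicate 2 and 26.8% in replicate 1. The order of levels was nearly the same in both libraries, with Spearman's rho 0.979 across the 35 genes, which share their libraries and are not independent replicates.

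**Figure D1:**
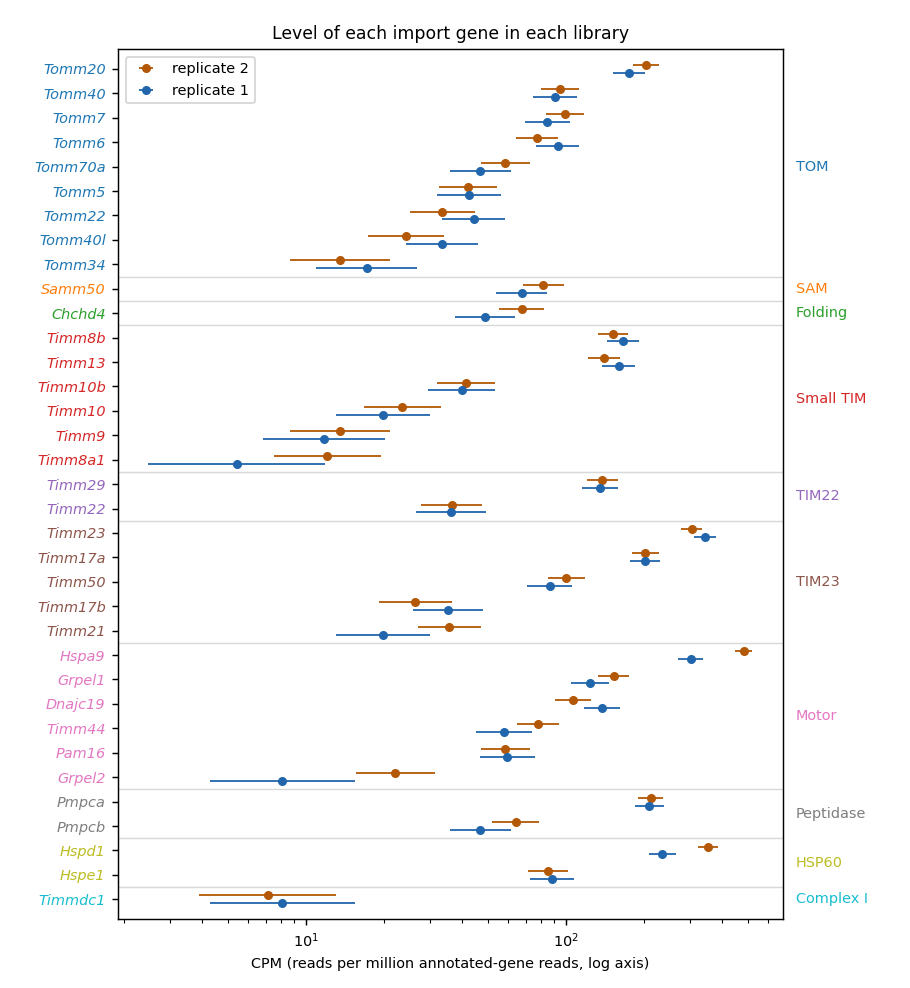
CPM of each import gene (log axis) in replicate 2 (orange) and replicate 1 (blue), grouped by complex. Bars are Wilson 95% intervals for counting error. The points of the 2 libraries lie close together for most genes. The bars of Hspa9 and Hspd1 do not overlap between the libraries, and those of Grpel2, on few reads, narrowly fail to overlap.

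At the outer membrane, the receptor Tomm20 was the most abundant TOM gene. Tomm20, which binds presequences, had 203 CPM in replicate 2 and 175 CPM in replicate 1 (285 and 194 reads). The pore gene Tomm40 had 94.8 and 91.2 CPM (133 and 101 reads). Among the small subunits that steady the pore, Tomm7 had 99.1 and 84.9 CPM, Tomm6 had 77.7 and 93.0 CPM and Tomm5 had 42.1 and 42.5 CPM. Tomm70a, the receptor for carrier precursors delivered by cytosolic chaperones, had 58.5 and 47.0 CPM, and Tomm22, the central receptor that links the pores, had 33.5 and 44.3 CPM. Tomm40l, a paralog of the pore gene, had 24.2 and 33.4 CPM, and Tomm34, a cytosolic co-chaperone, had 13.5 and 17.2 CPM. For the TOM group as a whole, 907 reads in replicate 2 and 696 in replicate 1 gave sums of 647 and 629 CPM. In neither library did the intervals of Tomm40, Tomm7 and Tomm6 separate these 3 genes from each other, whereas Tomm20 stood above all of them in both. Samm50, the core of the SAM complex, had 82.0 and 67.7 CPM (115 and 75 reads).

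In the intermembrane space, Chchd4, the oxidoreductase that introduces disulphide bonds into incoming proteins, had 67.7 CPM in replicate 2 and 48.8 CPM in replicate 1. The small TIM proteins, which escort hydrophobic precursors across this space and are themselves substrates of Chchd4, covered a wide range. Timm8b had 152 and 166 CPM (213 and 184 reads) and Timm13 had 140.4 and 159.9 CPM (197 and 177 reads). The others were lower: Timm10b had 41.3 and 39.7 CPM, Timm10 had 23.5 and 19.9 CPM, Timm9 had 13.5 and 11.7 CPM and Timm8a1 had 12.1 and 5.42 CPM. The gap between Timm13 and the next member, Timm10b, exceeded the difference between the libraries for either gene. Timm9 and Timm10 proteins are known to form one chaperone ring and Timm8a1 and Timm13 another.

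The small TIM genes are recognised by a shared coding feature, the twin CX3C motif, in which pairs of cysteines spaced by 3 residues close the fold. The coding stretches between the first and the last of these cysteines, taken from the GENCODE M21 transcript that held the most reads of each gene (mm10), are shown because they mark what the members have in common beside their different levels. Capitals mark the cysteine codons.
Timm8a1 (chrX:134538202-134541462, minus strand): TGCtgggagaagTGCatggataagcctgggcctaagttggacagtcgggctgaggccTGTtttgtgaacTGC
Timm8b (chr9:50604954-50605025, plus strand): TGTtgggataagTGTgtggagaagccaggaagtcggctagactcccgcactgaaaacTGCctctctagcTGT
Timm13 (chr10:80900242-80900535, minus strand): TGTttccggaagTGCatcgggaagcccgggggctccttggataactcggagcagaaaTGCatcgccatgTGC
Timm9 (chr12:71123666-71125515, minus strand): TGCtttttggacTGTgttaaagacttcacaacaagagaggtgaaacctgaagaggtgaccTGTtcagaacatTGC
Timm10 (chr2:84829803-84829880, plus strand): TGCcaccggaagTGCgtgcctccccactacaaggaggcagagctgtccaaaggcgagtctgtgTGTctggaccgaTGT
Timm10b (chr7:105640804-105641048, plus strand): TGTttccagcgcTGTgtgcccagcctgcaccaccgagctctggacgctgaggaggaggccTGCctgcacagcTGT
Each stretch held 4 cysteine codons. The spacer between the inner cysteines was 14 codons in Timm8a1, Timm8b and Timm13, 15 in Timm9 and Timm10b, and 16 in Timm10. An intron interrupted the stretch in 4 of the 6 genes, and in Timm8b and Timm10 it lay within 1 exon.

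At the inner membrane, Timm23, the channel of the presequence translocase, had the second highest mean level of the members, with 305 CPM in replicate 2 and 343 CPM in replicate 1 (428 and 380 reads). Its partner Timm17a had 202 and 201 CPM (284 and 223 reads), and Timm50, the receptor that takes over presequences from TOM, had 100.5 and 86.7 CPM. The paralog Timm17b had 26.4 and 35.2 CPM, and Timm21, which couples TIM23 to TOM, had 35.6 and 19.9 CPM (50 and 22 reads). The TIM23 group summed to 670.1 and 686 CPM. In the carrier translocase, the subunit gene Timm29 had 138 and 135 CPM (194 and 150 reads) and the channel gene Timm22 had 36.4 and 36.1 CPM. Timm29 lay above Timm22 by more than the spread of either. Timmdc1, which is named after the family but serves complex I assembly, had the lowest level of all members, 7.13 and 8.13 CPM (10 and 9 reads).

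The matrix side held the member with the highest mean level. Hspa9, the mitochondrial HSP70 that drives the motor, had 484 CPM in replicate 2 and 302 CPM in replicate 1 (679 and 334 reads). Its nucleotide exchange factor Grpel1 had 153 and 124 CPM (214 and 137 reads), and the paralog Grpel2 had 22.1 and 8.13 CPM (31 and 9 reads). Of the J-domain regulators, Dnajc19 had 106 and 137 CPM (149 and 152 reads) and Pam16 had 58.5 and 59.6 CPM. Timm44, which tethers the motor to the channel, had 78.4 and 57.8 CPM. Hspa9 led all members in replicate 2, while Timm23 led in replicate 1. The motor group summed to 902 and 688 CPM, above the TIM23 sum in replicate 2 and next to it in replicate 1.

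Behind the motor, the processing peptidase genes were unequal. Pmpca, the substrate-binding subunit, had 212 and 209.6 CPM (297 and 232 reads), and Pmpcb, the catalytic subunit, had 64.2 and 47.0 CPM (90 and 52 reads). The chaperonin gene Hspd1 (HSP60) had 351 and 235 CPM (492 and 260 reads), and its lid Hspe1 (HSP10) had 85.5 and 88.5 CPM (120 and 98 reads).

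Within 13 pairs of partners and paralogs, the log2 read ratio (prior count 0.5) had 1 sign in the 2 libraries, and the distance of its mean from 0 exceeded 2 SD in 13 of 13 pairs. With 2 libraries this criterion measures only how well they repeat each other. Partners that meet in one complex often differed severalfold in RNA. In replicate 2 the ratio of Hspd1 over Hspe1 was 4.10, against 2.65 in replicate 1, a mean log2 ratio of 1.72 that fell to 1.04 with annotated transcripts only. Pmpca exceeded Pmpcb by 3.30-fold and 4.46-fold, and Timm23 exceeded Timm50 by 3.04-fold and 3.96-fold. Tomm20 exceeded Tomm22 by 6.06-fold and 3.96-fold, and Dnajc19 exceeded Pam16 by 1.82-fold and 2.30-fold. Hspa9 was 1.38-fold and 1.28-fold above Hspd1, a mean log2 ratio of 0.41, against 0.90 with annotated transcripts only.

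Among the small TIM genes, Timm13 and Timm8b were nearly equal. The read ratio of Timm13 over Timm8b was 0.925 in replicate 2 (interval 0.762 to 1.12) and 0.962 in replicate 1 (0.783 to 1.18), so the genes could not be separated in either library, and with genomic reads left out this pair no longer met the 2 SD criterion. Timm9 over Timm10 was 0.576 (0.330 to 1.01) and 0.591 (0.302 to 1.16), also within counting error. By contrast Timm13 exceeded Timm8a1 by 11.6-fold and 29.5-fold and Timm8b exceeded Timm8a1 by 12.5-fold and 30.7-fold, where the size rests on only 17 and 6 reads of Timm8a1.

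In each paralog pair 1 gene led in both libraries. Timm17a exceeded Timm17b by 7.68-fold (5.46 to 10.8) in replicate 2 and 5.72-fold (4.08 to 8.02) in replicate 1, Grpel1 exceeded Grpel2 by 6.90-fold and 15.2-fold, and Tomm40 exceeded Tomm40l by 3.91-fold and 2.73-fold. The mean log2 ratio of Tomm40 over Tomm40l was 1.69 on all reads and 2.30 on annotated transcripts alone. On all reads, the intervals of the 2 libraries overlapped for each of these 3 pairs.

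**Figure D2:**
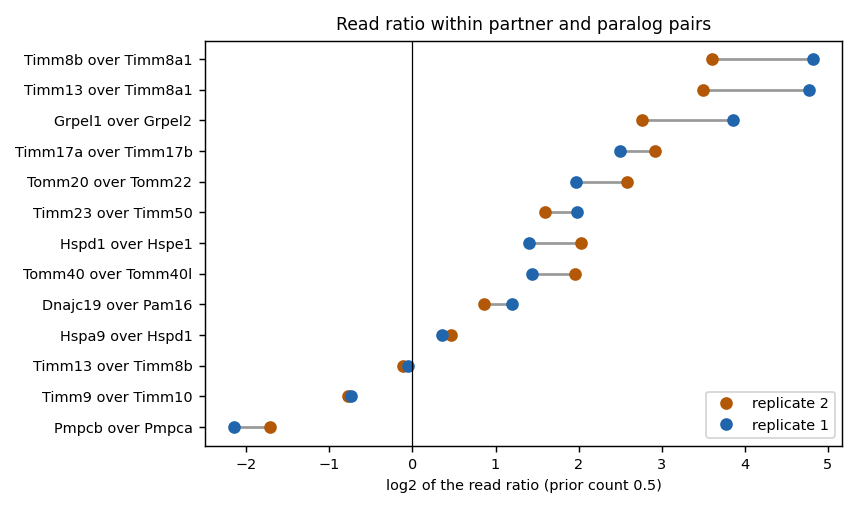
log2 of the read ratio (prior count 0.5) for 13 pairs of partner and paralog genes in replicate 2 (orange) and replicate 1 (blue), with a line joining the libraries. The points of Timm13 over Timm8b lie next to 0, those of Timm8b over Timm8a1 are farthest from it, and each pair keeps its sign.

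Between the libraries most import genes differed by less than counting error. No member was over 2-fold apart among the 30 with at least 50 summed reads: 0 were higher in replicate 2, where the share over all 4294 such genes was 3.89%, and 0 were higher in replicate 1, where it was 0.536%. The summed level was 1.11-fold higher in replicate 2 (log2 ratio 0.15, interval 0.09 to 0.21). The log2 ratio, replicate 2 over replicate 1, had a median of 0.05 over the 35 members and 0.12 over all 8626 genes with at least 10 summed reads. By sign, 22 members (62.9%) were higher in replicate 2 and 13 in replicate 1, close to the 59.8% of all genes that were higher in replicate 2. Because median-ratio scaling lowers every log2 ratio by 0.10 and TMM scaling by 0.09, the split turned to 16 and 19 under each, beside 51.9% and 53.4% of all genes higher in replicate 2, and the median of the members to -0.049 and -0.033. The direction of the median is thus not fixed by these data.

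Counting intervals excluded equality for 5 of the 35 members, 4 of them higher in replicate 2 and 1 higher in replicate 1. Over all 8626 genes with at least 10 summed reads these shares were 11.9% higher in replicate 2 and 4.63% higher in replicate 1. The members' count was near this background, which was not matched for read number, on which interval width depends. At least 50 summed reads were held by 30 of the 35 members and by 4294 of the 8626 genes. A matched background was not tested. Chi-square per degree of freedom, likewise unmatched, was 4.00 over the members and 6.21 over all these genes. Hspa9 was 1.60-fold higher in replicate 2 (1.41 to 1.83) and Hspd1 1.49-fold (1.28 to 1.74). Grpel2 was 2.72-fold higher (1.26 to 6.49) on 31 and 9 reads, and Timm21 1.79-fold (1.07 to 3.11) on 50 and 22 reads. Dnajc19 was lower in replicate 2, with a ratio of 0.774 (0.613 to 0.976). Under median-ratio scaling the interval of Timm21 no longer excluded equality, and that of Timm23, with a ratio of 0.889 under scaling by totals, did so in the direction of replicate 1 under both other scalings. The summed motor genes were 1.31-fold higher in replicate 2 (1.197 to 1.44), but 4 members were higher there and 2 in replicate 1, and without Hspa9 the sum was 1.08-fold higher (0.952 to 1.23). The chaperonin sum was 1.35-fold higher (1.18 to 1.54) through Hspd1 alone, since Hspe1 had a ratio of 0.966 (0.734 to 1.28). The intervals of the TOM, small TIM, TIM22, TIM23 and peptidase sums each included 1.

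**Figure D3:**
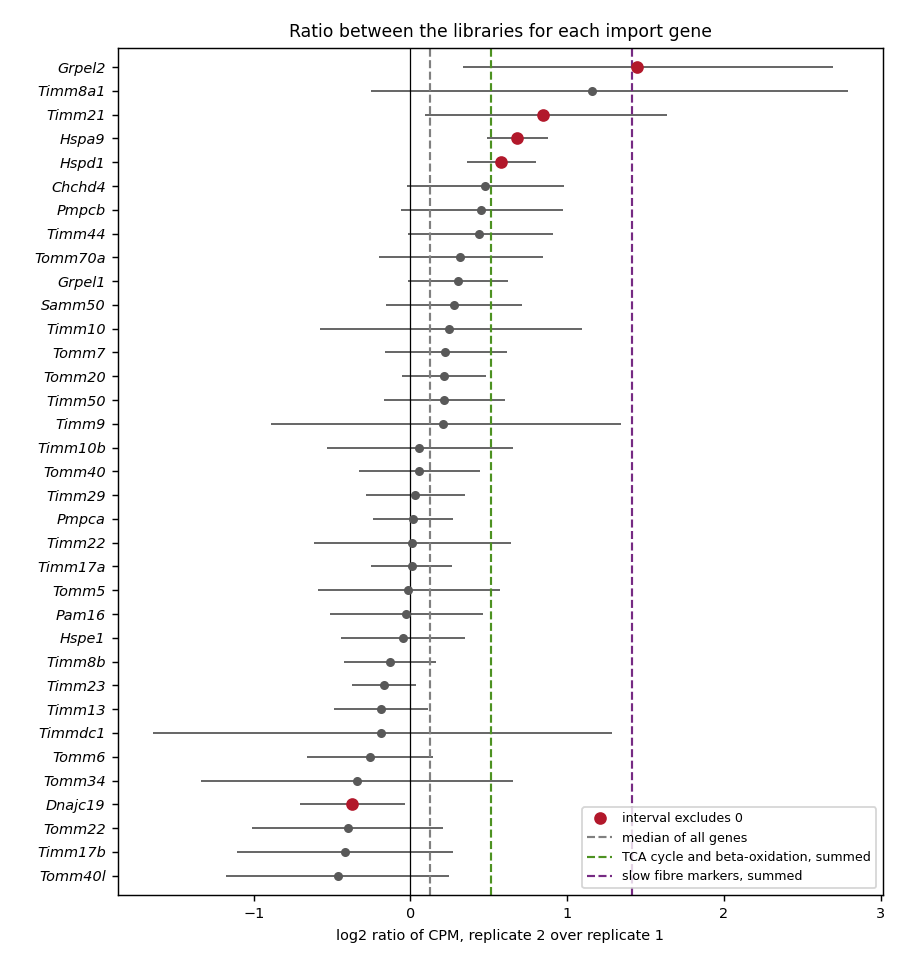
log2 ratio of CPM, replicate 2 over replicate 1, for each import gene with its exact 95% counting interval. Red points mark the 5 genes whose interval excludes 0, and dashed lines mark the median of all genes and the summed ratios of the genes of the TCA cycle and beta-oxidation and of slow fibre markers. Of the 35 points, 5 lie right of the TCA line at 0.52 and Grpel2 alone right of the slow fibre line at 1.41.

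The libraries differed in fibre type genes and in transcript length, and both moved beside these values. The summed level of 29 genes of the TCA cycle and beta-oxidation was 1.43-fold higher in replicate 2, with 28 of 29 higher there and a median log2 ratio of 0.43, beside the slow fibre markers given above. Among the members, 16 whose most-read transcript is at least 2000 nt long had a median log2 ratio of 0.24, and 19 with shorter ones had -0.03. The same split over all genes gave 0.20 over 5257 longer genes and -0.01 over 2851 shorter ones. The part of fibre composition and of length in the values of the import genes was not tested.

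Other genes of import and sorting, listed by function, are given for comparison. Of 40 names, 36 had reads, and 34 had at least 10. Of these 25 were higher in replicate 2 and 9 in replicate 1, with a median log2 ratio of 0.12, against 59.8% of all genes higher in replicate 2. Median-ratio scaling put 17 on each side, and TMM scaling put 19 in replicate 2 and 15 in replicate 1. The list summed to 6104 CPM in replicate 2 and 5628 CPM in replicate 1. Its most-read genes were the cytosolic chaperones Hsp90ab1 (1151 and 1154 CPM) and Hspa8 (1146 and 1084 CPM), which deliver precursors, then Ghitm (754 and 573 CPM), Chchd3 (383 and 322 CPM) and Minos1 (294 and 275 CPM), the last 2 of them organisers of the cristae, and the J-domain gene Dnaja3 (176 and 165 CPM). Mtx2, a metaxin of the SAM complex, was the only gene of the list over 2-fold apart among 31 with at least 50 summed reads, with 54.9 and 22.6 CPM (77 and 25 reads). It is named because of its value.

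Reads of the import genes matched an annotated transcript in a larger share than reads of all annotated genes. In replicate 2, 86.5% of the members' reads (85.5 to 87.4) matched an annotated transcript, and in replicate 1 this was 89.0% (87.9 to 89.97), a mean of 87.7% ± 1.79 (SD, n = 2). Over all annotated genes the shares were 65.5% and 66.2%. These shares weigh each gene by its reads. The fast fibre marker Atp2a1 alone held 203279 of 1402875 reads in replicate 2 and 163251 of 1107128 in replicate 1. A comparison per gene or at matched levels was not tested. Incomplete matches, which cover part of an annotated transcript and include single-exon reads, made up 5.10% and 4.27% of the members' reads. Unannotated combinations of annotated splice sites made up 3.17% and 2.42%, unannotated splice sites 1.62% and 1.51%, and genomic reads, which overlap a gene without its splice junctions, 3.64% and 2.81%. Over all genes 17.4% and 17.2% of reads carried an unannotated splice site.

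**Figure D4:**
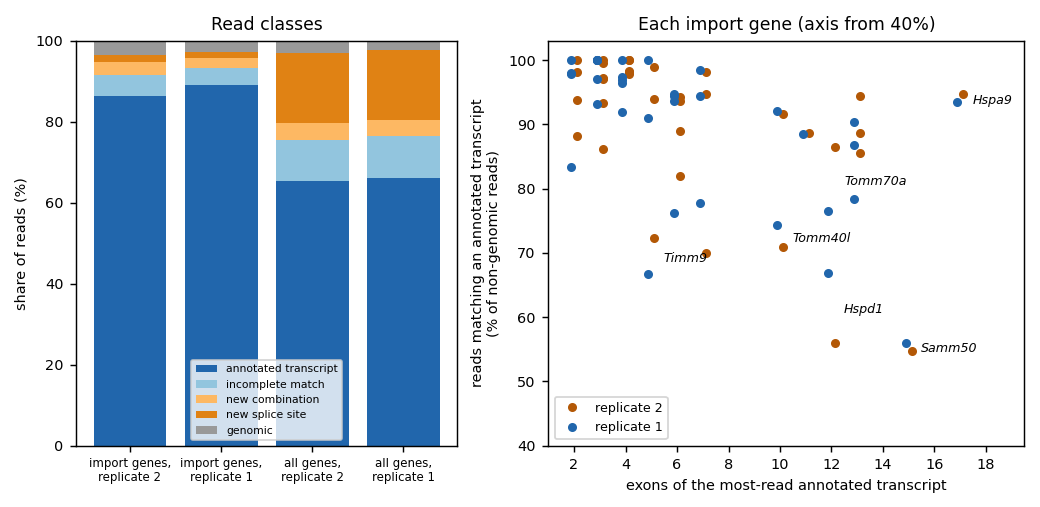
Left, share of reads by class for the import genes and for all annotated genes in replicate 2 and replicate 1. Right, share of each import gene's non-genomic reads that match an annotated transcript, against the exon number of its most-read transcript (vertical axis from 40%). Samm50 lies lowest in both libraries, at 54.8% and 56.0%.

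A single annotated transcript led in nearly every member. All 30 members with at least 20 non-genomic reads in each library had the same annotated transcript in the lead in both, and in 23 of the 30 it held over 80% of these reads in both libraries. The median share of the leading transcript over the 35 members was 92.1% in replicate 2 and 88.4% in replicate 1. Hspa9-201, a transcript of 17 exons, held 94.7% and 93.4% of the gene's non-genomic reads, and Timm23-201, of 7 exons, held 97.9% and 97.9%. Tomm20-201 held 279 of 282 and 192 of 192. Leading transcripts ranged from 518 nt (Timm8b-201) to 7280 nt (Timm17a-201). The share of non-genomic reads that matched an annotated transcript was lower in genes with more exons. Spearman's rho was -0.52 in replicate 2 and -0.64 in replicate 1 across the 35 genes, given as a description.

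Internal exons of the members were rarely skipped. Of 162 internal exons in the leading transcripts of 31 genes, 150 were included in at least 95% of the reads that span them in both libraries. Over all of these exons inclusion was 99.4% in replicate 2 and 99.3% in replicate 1. Hspa9 has 15 internal exons and each was included in over 99% of its spanning reads in both.

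Hspd1 was the well-read member with the most divided set of models. Its annotated transcript Hspd1-201 held 275 of 492 non-genomic reads in replicate 2, or 55.9% (51.5 to 60.2), and 174 of 260 in replicate 1, or 66.9% (61.0 to 72.4). A second chain with the same number of exons, 12, held 120 reads (24.4%) and 57 reads (21.9%). The chains differ in the first exon, which is 246 nt long in Hspd1-201 (chr1:55087779-55088024) and 36 nt in the other (chr1:55087989-55088024). The short form uses a donor site that GENCODE M21 lists only for Hspd1-202, and the 210 nt between the donors hold no coding sequence, so the encoded protein is the same. Among reads with either first exon, the short form held 30.4% (26.1 to 35.1) in replicate 2 and 24.7% (19.6 to 30.6) in replicate 1, with overlapping intervals. It was the most-read unannotated chain of any member.

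The third Hspd1 model was the last exon alone. It had 77 reads in replicate 2, or 15.7% of the gene (12.7 to 19.1), and 11 reads in replicate 1, or 4.23% (2.38 to 7.42), and the intervals did not overlap. With annotated transcripts only in the gene, over the unchanged total of annotated-gene reads, Hspd1 had a log2 ratio of 0.32 (0.04 to 0.60). On all reads it was 0.58. Hspa9 was 1.63-fold higher in replicate 2 on that basis.

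Reads lying within the last exon were also frequent in Chchd4 and Samm50. In Chchd4, on the minus strand, single-exon reads were assigned to models inside the 3142-nt last exon, with the models' 5′ edge at chr6:91464555. The span of a model need not give the extent of each of its reads. These single-exon reads made up 54 of 95 reads in replicate 2, or 56.8% (46.8 to 66.3), and 20 of 54 in replicate 1, or 37.0% (25.4 to 50.4). The complete transcript Chchd4-201 had 40 and 34 reads. The ratio of Chchd4, replicate 2 over replicate 1, was 1.39 on all reads (interval 0.984 to 1.98). On annotated transcripts it was 0.952 (log2 interval -0.76 to 0.63). Both intervals included equality. In Samm50, whose transcript has 15 exons, single-exon reads made up 34 of 115 reads (29.6%) and 22 of 75 (29.3%), and Samm50-201 made up 54.8% and 56.0%. The model of these single-exon reads in replicate 2 covers the first part of the last exon (chr15:84214126-84214303). Over all members, single-exon reads inside the last exon numbered 300 in replicate 2 (5.87% of members' reads) and 127 in replicate 1 (3.49%). Hspd1, Chchd4 and Samm50 gave 165 and 53 of them. Hspa9 gave another 59 and 30, a smaller share of its many reads (8.69% and 8.98%). On fewer reads, Tomm40l gave 10 of 34 (29.4%) in replicate 2 and 2 of 37 (5.41%) in replicate 1. Tomm70a gave 6 of 82 (7.32%) and 9 of 52 (17.3%).

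**Figure D5:**
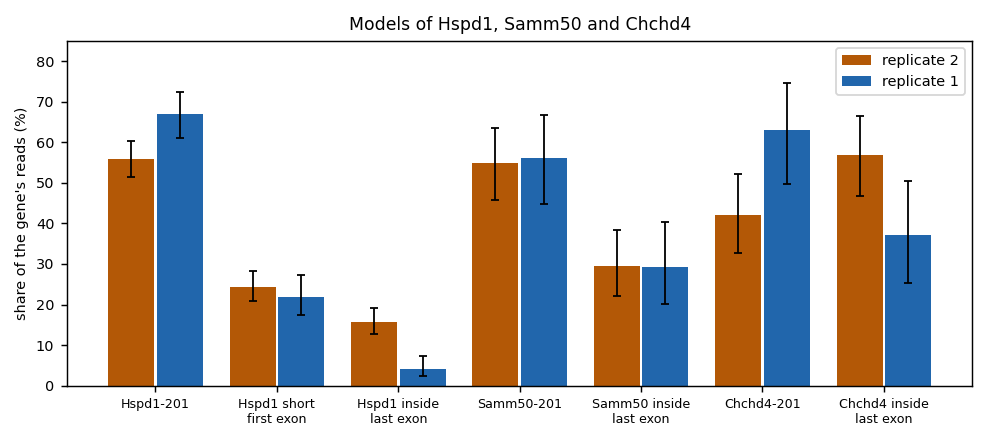
Share of each gene's reads, genomic reads included, in the named models of Hspd1, Samm50 and Chchd4, in replicate 2 (orange) and replicate 1 (blue) with Wilson 95% intervals. Reads inside the last exon take a larger share of Hspd1 in replicate 2, and their Samm50 shares are alike in the libraries.

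Annotated alternatives held smaller shares than the leading transcript in the other members. Tomm40-201, which keeps a 98-nt intron that Tomm40-202 removes, had 14 reads (10.6%) in replicate 2 and 8 (8.0%) in replicate 1, and both have 1083 coding nt. Tomm5-202, with an additional 50-nt exon, had 5 reads (8.47%) and 6 (12.8%), and changes the annotated coding length to 183 nt from 153 nt. Tomm6-201, whose intron is 54 nt shorter than in Tomm6-202 outside the coding part, had 8 reads (7.34%) and 9 (8.74%). Timm22-203 skips an internal exon of 197 nt and had 2 reads and 4, against 45 and 32 for Timm22-201. Timm13-204, in which 45 coding nt are spliced out, had 7 reads in each library, against 177 and 164 for Timm13-201. In the sparsely read Timm9, Timm9-207 led with 9 of 18 non-genomic reads and 7 of 12, and Timm9-202, with an additional exon of 136 nt, had 4 (22.2%) and 1 (8.33%). Tomm34-201 had 2 reads in each library, or 10.5% and 11.1% of its gene.

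Timm10b was the most varied of the small TIM genes. Its leading transcript Timm10b-203 had 33 reads (56.9%) in replicate 2 and 31 (70.5%) in replicate 1. Timm10b-210 had 6 and 4 reads and lacks the internal exon of 96 nt at chr7:105640762-105640857, which was included in 87.9% and 86.4% of spanning reads. That exon holds the first pair of cysteine codons of the stretch printed above. Timm10b-201 had 6 and 3 reads and an unannotated combination 7 and 2.

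Unannotated chains of the members recurred in part. Of 144 spliced unannotated chains in replicate 2 and 120 in replicate 1, 50 were found in both with the same intron chain, or 34.7% and 41.7%. They came from 20 genes: 32 were incomplete matches, 7 joined annotated splice sites and 11 held an unannotated splice site. The number is 23 when each library must hold at least 2 reads and 5 when it must hold at least 5.

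After the short first exon of Hspd1, the most-read shared chain was a 5′-truncated Pmpca chain of 6 exons, with 13 reads in replicate 2 and 12 in replicate 1. Next came an unannotated Tomm40l combination with 7 and 8 reads, or 29.2% and 22.9% of that gene, in which an intron is 100 nt longer at the cost of no coding nt. A 3-exon end of Samm50 had 9 and 5 reads and a truncated Timm17a chain 6 and 6. The others of the 10 leading chains were the Timm10b combination, truncated chains of Hspd1 (4 and 4 reads) and Timm23 (6 and 2), and Timm50 and Dnajc19 chains with an unannotated splice site.

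Timm50 holds the shortest internal exons of the set. Exons of 32 nt and 22 nt, both coding, follow each other in the transcript. They are printed joined as they stand in Timm50-201 (minus strand, chr7:28310079-28310327, with the intron between them removed), and capitals mark the 22-nt exon.
Timm50: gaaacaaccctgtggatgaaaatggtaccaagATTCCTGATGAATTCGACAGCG
The 22-nt exon was included in 135 spanning reads in replicate 2, or 97.1% (92.8 to 98.9), and 88 in replicate 1, or 93.6% (86.8 to 97.04). A chain found in both libraries, with 3 and 5 reads, lacked it and had instead a 54-nt exon in place of the 32-nt one, longer by the same 22 nt. In Dnajc19, a chain with 5 and 2 reads had an intron 4 nt shorter than the annotated one.

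Several members share a promoter region with a gene on the other strand. Measured between the starts of the most-read transcripts, 8 of the 35 members (22.9%) had a detected coding gene starting within 1000 bases on the opposite strand, against 886 of 8230 detected coding genes (10.8%). Hspd1 and Hspe1 are such a pair with each other: their starts, chr1:55088024 and chr1:55088132, enclose 107 bases. The other pairs were Timm8b with Sdhd, a subunit gene of succinate dehydrogenase (97 bases between, 481 and 290 reads of Sdhd), Timm23 with Parg (50 bases), Chchd4 with Tmem43 (156 bases), Pmpca with Entr1 (41 bases), Timm17b with Pqbp1 (87 bases) and Timm29 with Yipf2, whose starts overlap by 51 nt. Hspd1 was among the leading members and Hspe1 at a middle level, and of the pair the interval of the library ratio excluded equality for Hspd1 alone.

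The bases between the Hspd1 and Hspe1 starts are shown because one stretch serves both chaperonin genes (plus strand, chr1:55088025-55088131, RefSeq sequence of GRCm38). Capitals mark the letters of the motif TTCNNGAA, the core of the heat shock element, on which heat shock factors are known to act.
Hspd1-Hspe1: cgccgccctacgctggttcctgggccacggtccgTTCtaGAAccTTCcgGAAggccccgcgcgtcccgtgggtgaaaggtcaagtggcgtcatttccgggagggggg
The motif occurred 2 times in a row, and 68.2% of the bases were G or C. A longer heat shock element, in which TTCNNGAA is followed 2 bases on by TTC, searched on both strands, was found in the RefSeq promoters of 3 of 30 matched members (Hspd1, Hspe1 and Timm9), against 0.662% of 27025 genes with a promoter sequence (250 bases before to 50 after the start). The ETS motif CCGGAAGT was found in 7 of the 30 (Pmpcb, Timm10, Timm10b, Timm23, Timm29, Timmdc1 and Tomm70a), or 23.3%, against 4.31% of all. The YY1 motif AANATGGC was in 3 of 30, against 6.96%, the CCAAT box in 10 of 30, against 41.1%, and the palindromic NRF1 motif in 0 of 30, against 1.07%. A match describes the letters and does not show a bound site, and Hspd1 and Hspe1 count separately although their windows overlap. The 27025 genes include ones without reads here, whereas all members were detected, and a background of detected genes alone was not tested.

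Copies of the members elsewhere in the annotation took few reads. For 16 members another annotated gene had a transcript with at least 90% identity over at least 200 nt, 39 such copies in all. Of these 11 had reads, 31 in total in replicate 2 and 28 in replicate 1. Gm10273, which matches Timm23 at 99.9% over 1121 nt, had 7 and 7 reads, and Gm9803, identical to Pam16 over 534 nt, had 6 and 11. The split of reads between Pam16, with 82 and 66 reads, and Gm9803 is uncertain for this reason. In a different kind of overlap, models joining Tomm40 to its neighbour Apoe had 6 reads in replicate 2 and 2 in replicate 1.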

How the data were processed

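Long-read RNA sequencing was analysed from 2 libraries of B6CASTF1/J male gastrocnemius. The authors deposited raw read counts per transcript model, 1 library at a time and not normalized, on mm10 with GENCODE M21; the models carry TALON tags, per the file headers. Aligner and filters: not given in the sources used here. A model is annotated, an incomplete match, an unannotated combination, an unannotated splice site or genomic. Truncated molecules can enter as incomplete matches, and a model appears in a file from 1 read up. Single-exon reads inside the last exon were classed as incomplete matches in Hspd1 and Samm50 but as genomic in Chchd4.

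Counts were summed per annotated gene and divided by the reads of annotated genes (CPM), leaving out spike-ins, which took 2.13% of reads in replicate 2 and 4.23% in replicate 1. Chi-square per degree of freedom was 4.00 over the 35 members, above what counting alone gives, and the libraries count as 2 samples. With 2 libraries of 1 group there was no test: ratios have exact conditional 95% intervals, shares have Wilson intervals, and a count of 0 allows up to 3 counts. With no molecular identifiers, only counting error is covered. TMM factors came from edgeR 4.0.16 (R 4.3.3), copies from blastn 2.17.0, and the rest from Python 3.11.15. Ratio intervals were tried on simulated counts that held counting error alone, which is the error they assume. That trial cannot show how the intervals hold between the real libraries.

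Every member is named. Members with at least 100 reads in each library have values in both, and the 10 most-read shared unannotated chains are given. The line for isoforms was at least 10% of non-genomic reads in either library and 20 summed reads. Some annotated alternatives below this line are also named, with their reads. The members and lists were chosen with earlier results of these data known. Splits by transcript length, group sums without a leading member and the searches for copies, promoter motifs and neighbours were added after the data were seen. Alternatives were 2 other scalings, annotated transcripts alone, totals without genomic reads or without mitochondrially encoded genes, other count minimums, another prior count and each library left out.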

Additional observations from a re-analysis of the deposited data

Results flagged for a closer look

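Antisense reads, which were outside the main comparisons, exceeded the limit that a count of 0 allows in 1 member. Across Tomm70a, models on the opposite strand had 7 reads in replicate 2 and 2 in replicate 1, beside 82 and 52 sense reads. All members together had 20 antisense reads in replicate 2, from 9 genes, and 8 in replicate 1, from 5 genes.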

How the results depend on the processing

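The summed level of the import genes, 3464 CPM, stayed within 1 SD between the libraries under both other scalings and without genomic or mitochondrially encoded reads; with annotated transcripts only it was 4613 CPM, because unannotated models then leave the denominator. It was 3282 to 3645 CPM without each library in turn. The median log2 ratio turned to -0.049 under median-ratio scaling and to -0.033 under TMM scaling, and kept its sign under the other 5 alternatives. The count of members over 2-fold apart was 0 as reported, 1 (Timm21) with annotated transcripts only and 2 with a minimum of 10 summed reads, which admits Grpel2 and Timm8a1. The share of reads matching an annotated transcript was 90.6% with genomic reads left out and 86.5 to 89.0% without each library. Shared unannotated chains numbered 23 with at least 2 reads in each library and 5 with at least 5. The counts of same leading transcripts (29 to 32, and 21 with a minimum of 50 reads) and of pairs past 2 SD (12 or 13) moved by less than 1.5 times. Of 175 values of single genes under alternatives, 172 stayed within the counting interval, the exceptions being Chchd4 (-0.06 with annotated transcripts only and -0.06 without genomic reads) and Hspd1 (0.33 with annotated transcripts only). Of 65 pair values none changed sign and 8 moved by more than 1 SD. With annotated transcripts only, the mean log2 ratio was 1.04 for Hspd1 over Hspe1 (1.72 on all reads), 0.90 for Hspa9 over Hspd1 (0.41), 2.30 for Tomm40 over Tomm40l (1.69), -1.21 for Timm9 over Timm10 (-0.76) and -0.13 for Timm13 over Timm8b (-0.08). Timm9 over Timm10 was -0.62 with a prior count of 5, and without genomic reads Timm13 over Timm8b was -0.14 and Hspa9 over Hspd1 0.28. Leaving out a group's leading member, chosen after seeing the data, gave 0.11 for the motor sum without Hspa9 (0.39 with it) and -0.049 for the chaperonin without Hspd1 (0.43 with it). No paired analysis was possible because the libraries form 1 group. Members with under 50 summed reads (Grpel2, Timm8a1, Timm9, Tomm34 and Timmdc1) have wide intervals.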
